A study of Mus musculus with 16 samples.

Results

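The events described here are alternative 3′ splice sites (A3SS), places where the splicing machinery can join an upstream exon to either of 2 acceptor sites at the start of the next exon. All events typed A3SS were taken from the authors' 3 deposited rMATS tables, which set wild-type hearts given the control virus against each of the other 3 groups. Together these tables held 4663 distinct A3SS events in 3021 genes. Of these, 3342 events in 2235 genes averaged 10 or more junction reads a library on both sides of at least 1 table and were analysed. The table of mutant hearts with the control virus held 4153 A3SS events, of which 3029 reached the minimum. The corresponding counts were 2986 of 4091 in the table of mutant hearts with the Tnpo3 virus and 2910 of 3953 in the table of wild-type hearts with the Tnpo3 virus. At the read minimum, the 3 tables held 34601, 34430 and 31710 events of all 5 types, in the same order.

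RNA came from the left ventricle of Bl6J mice, males and females, that were wild type or homozygous for the P635L change in RBM20. All mice, the controls included, received an AAV9 vector at 4 weeks of age, 1e12 vector genomes by tail vein, and the hearts were taken 12 weeks later, at 16 weeks. One vector carried Tnpo3 cDNA and the other a control construct that expresses Cre recombinase and eGFP from the CAG promoter, so the control hearts made foreign proteins too. There were 4 mice in each of the 4 groups, called WT_Ctr, WT_Tnpo3, P635L_Ctr and P635L_Tnpo3, and which mouse was of which sex is not given in the labels. The study's title asks of raised TNPO3 whether it relieves the cardiomyopathy of RBM20 mutants.

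RBM20 is a splicing regulator of heart and skeletal muscle with an arginine- and serine-rich domain, and P635L lies in the short stretch of that domain where cardiomyopathy mutations gather. TNPO3, transportin 3, is the nuclear import receptor of proteins with such domains. At a 3′ splice site the U2AF dimer reads the pyrimidine tract and the AG that ends the intron before the U2 particle settles on the branch point. A common form of A3SS is the tandem acceptor, in which both AGs lie 3 bases apart and the choice adds or removes a single codon.

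Throughout, the segment is the stretch between both acceptors. The long form uses the upstream acceptor and keeps the segment, and the short form uses the downstream acceptor and leaves it out with the intron. The inclusion level is the share of the long form among both forms, from 0 to 1, after rMATS corrects for the number of positions at which a read can show each form. A difference is always the mean level of the named group minus that of the group it is set against. The sequences below are spliced mRNA from GENCODE M21 transcripts, a GRCm38 annotation, matched to the deposited GRCm39 events within the same gene by exon and intron spacing. This match was found for 3018 of the 3342 events.

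Of the A3SS events at the read minimum, the one with the largest difference from WT_Ctr lies in Tpm2. This gene encodes beta-tropomyosin, a coiled-coil protein of the actin filament, and has alternative last exons. Both forms join the same upstream exon, in lower case, to different coding sequence, in capitals. The first line gives the first 30 bases of the 1142-base segment and the second the first bases after it.
Tpm2 long form: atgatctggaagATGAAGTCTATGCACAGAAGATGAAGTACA
Tpm2 short form: atgatctggaagAGACTTTGGCCAGTG

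The tandem acceptors among the named events are shown because their segments differ by a single codon. Capitals mark the 3-base segment, with 12 bases of the upstream exon before it and 12 bases of the shared exon after it.
Vps13d: gctttggacaaaCAGaggtgaaaacac
Foxp1: ccatttcttcagCAGatattgcgcaga
Hdac5: ccaacgagtcggCAGatggcatgtcag
Rfc1: agaaaaaacatgCAGcaaagtttggca
Usp48: gacaatgaagggCAGtgatggattttg
Mtss2: atcaccagccagCAGaaatcctccagc
Gm38431: cagggtcagaagAAGcctgggatcctg

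Among the longer coding segments of the named events, 6 with a share of C and T of 61.1% or more are shown, since pyrimidine tracts are a mark of intron ends. Capitals again mark the segment, which ends in the AG of the downstream acceptor.
Tnrc6c: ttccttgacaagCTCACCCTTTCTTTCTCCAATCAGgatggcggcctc
Ulk1: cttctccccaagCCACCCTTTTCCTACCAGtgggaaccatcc
Fance: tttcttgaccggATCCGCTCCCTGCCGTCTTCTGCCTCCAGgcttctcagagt
Tnpo3: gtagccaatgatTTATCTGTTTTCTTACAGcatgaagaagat
Celf2: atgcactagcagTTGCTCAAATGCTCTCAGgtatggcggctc
Zfp523: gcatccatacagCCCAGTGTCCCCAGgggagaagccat
Pyrimidines (C and T) made up 79.2% of the segment in Tnrc6c, 77.8% in Ulk1, 75.9% in Fance, 72.2% in Tnpo3, 64.3% in Zfp523 and 61.1% in Celf2. By a different measure, the last 20 bases of A3SS segments at least that long had a median of 65%. Zfp523 and Celf2 lay below that value. Among the other coding segments of named events, Arhgef40 had 72.7% at its 22-base segment, which is not shown. Lower shares than in the 6 were found in Zbtb44 (59.3%), Dcp1b (58.6%), C87436 (50.0%), Ttn (49.5%) and Dbr1 (48.6%).

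Short segments dominated the set. The median segment was 42 bases, with a range from 1 to 12750 bases, and 125 events had a segment of over 1000 bases. A length of exactly 3 bases accounted for 454 of the 3342 events, or 13.6%, against 111 of 4 bases and 79 of 5 bases. Where the sequence was matched, 299 of 434 such segments were CAG, 77 AAG, 43 TAG and 14 GAG. The segment ended in AG in 3008 of the 3016 matched events with a readable end, as a downstream acceptor requires. By the matched annotation, 1874 segments were coding, 292 partly coding, 168 in a 5′ UTR, 103 in a 3′ UTR and 581 in a transcript with no coding frame. Segment lengths divisible by 3 were found in 57.9% of coding segments and 36.9% of the 271 UTR segments. With the 3-base segments set aside, the shares were 46.8% of 1484 coding and 28.8% of 240 UTR segments. Several events can belong to 1 gene and share reads: 653 genes had more than 1, with 20 in Gas5, 19 in Hand2os1 and 9 each in Tardbp, Nubp2 and 2210408F21Rik.

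How evenly both acceptors were used depended on the length of the segment. Across the 2667 events measured at the read minimum in all 4 groups, the median inclusion level in WT_Ctr was 0.8, with 1131 events at 0.9 or higher, 578 at 0.1 or lower and 958 between. Among the 407 events with 3-base segments, 273 lay between 0.1 and 0.9 and the median was 0.714. Other segments of up to 9 bases mostly used the upstream acceptor, with a median of 0.965 over 251 events. Of these, 164 lay at 0.9 or higher, 66 between and 21 at 0.1 or lower. Segments of 10 to 100 bases split toward both ends, with 500 of 1353 events at 0.9 or higher and 427 at 0.1 or lower. For segments over 100 bases the median was 0.93 over 656 events. Within the 3-base class the level followed the letters of the segment: the median in WT_Ctr was 0.616 for CAG (274 events), 0.695 for TAG (40), 0.891 for AAG (65) and 0.998 for GAG (11). These medians describe events that differ in gene and depth, and no test was made between them. The share of C and T in the last 20 bases of the segment had a median of 65% in events at 0.1 or lower, in those between and in those at 0.9 or higher.

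**Figure D1:**
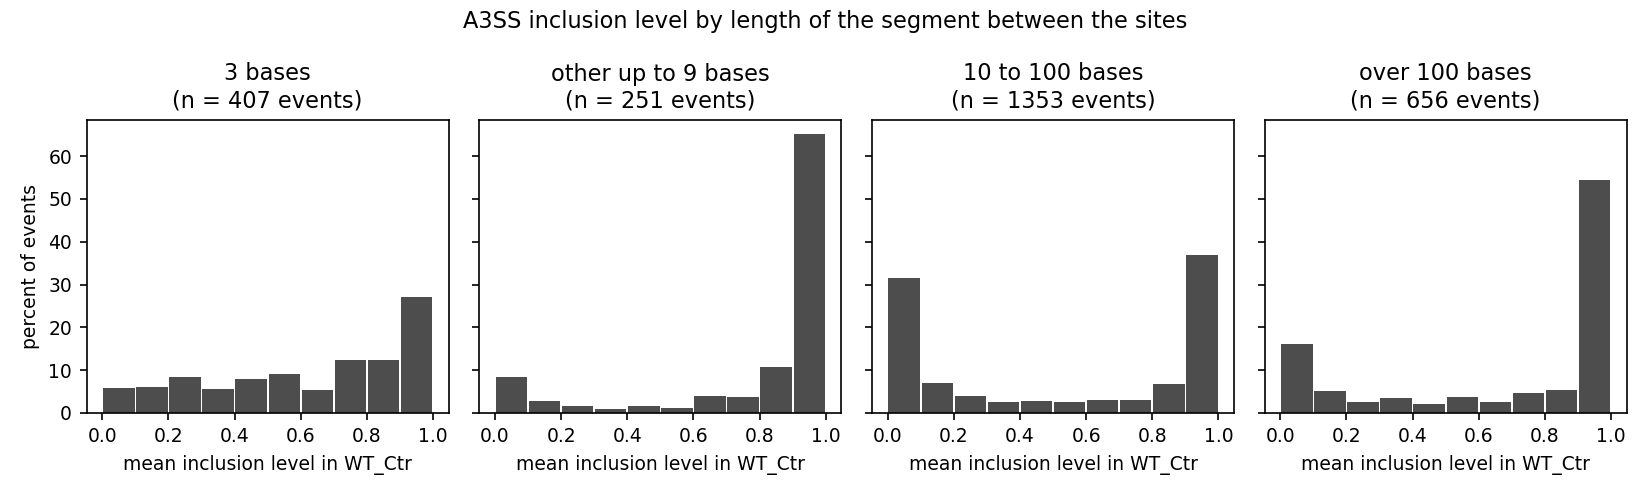
Histograms of the mean inclusion level in WT_Ctr (x axis, 0 to 1) as the percent of events (y axis), for 4 classes of segment length. The 407 events of 3 bases spread over the whole range, 65.3% of the other short events fall in the highest bin, and the 1353 events of 10 to 100 bases pile up at both ends.

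Group medians of these levels lay close together. The median over the 2667 events was 0.8 in WT_Ctr, 0.803 in WT_Tnpo3, 0.802 in P635L_Ctr and 0.803 in P635L_Tnpo3. For the 3-base events the medians were 0.714, 0.714, 0.722 and 0.707, in that order. Each library's mean inclusion level over the 2653 events read in all 16 libraries lay between 0.606 and 0.617. The 4 P635L_Tnpo3 libraries, at 0.613 to 0.617, lay above the 4 P635L_Ctr libraries, at 0.607 to 0.612, and both overlapped WT_Ctr (0.606 to 0.614) and WT_Tnpo3 (0.609 to 0.615). No test was made of these means. The depth behind these levels was 746170 to 2479442 junction reads per library over the same events.

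Event by event, most differences were of the size of the spread between mice. In P635L_Ctr against WT_Ctr the median absolute difference was 0.0185, while the median SD within a group was 0.0335 in WT_Ctr and 0.029 in P635L_Ctr. The median absolute difference was 0.0198 for P635L_Tnpo3 against WT_Ctr, 0.0185 for WT_Tnpo3 against WT_Ctr and 0.0177 between the mutant groups. Differences of at least 0.1 were seen in 301 events (136 higher, 165 lower), 313 (170, 143), 256 (130, 126) and 306 (188, 118), in the same order. The 3 comparisons with WT_Ctr share its 4 libraries, so their values are given side by side and not as separate support for one another.

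**Figure D2:**
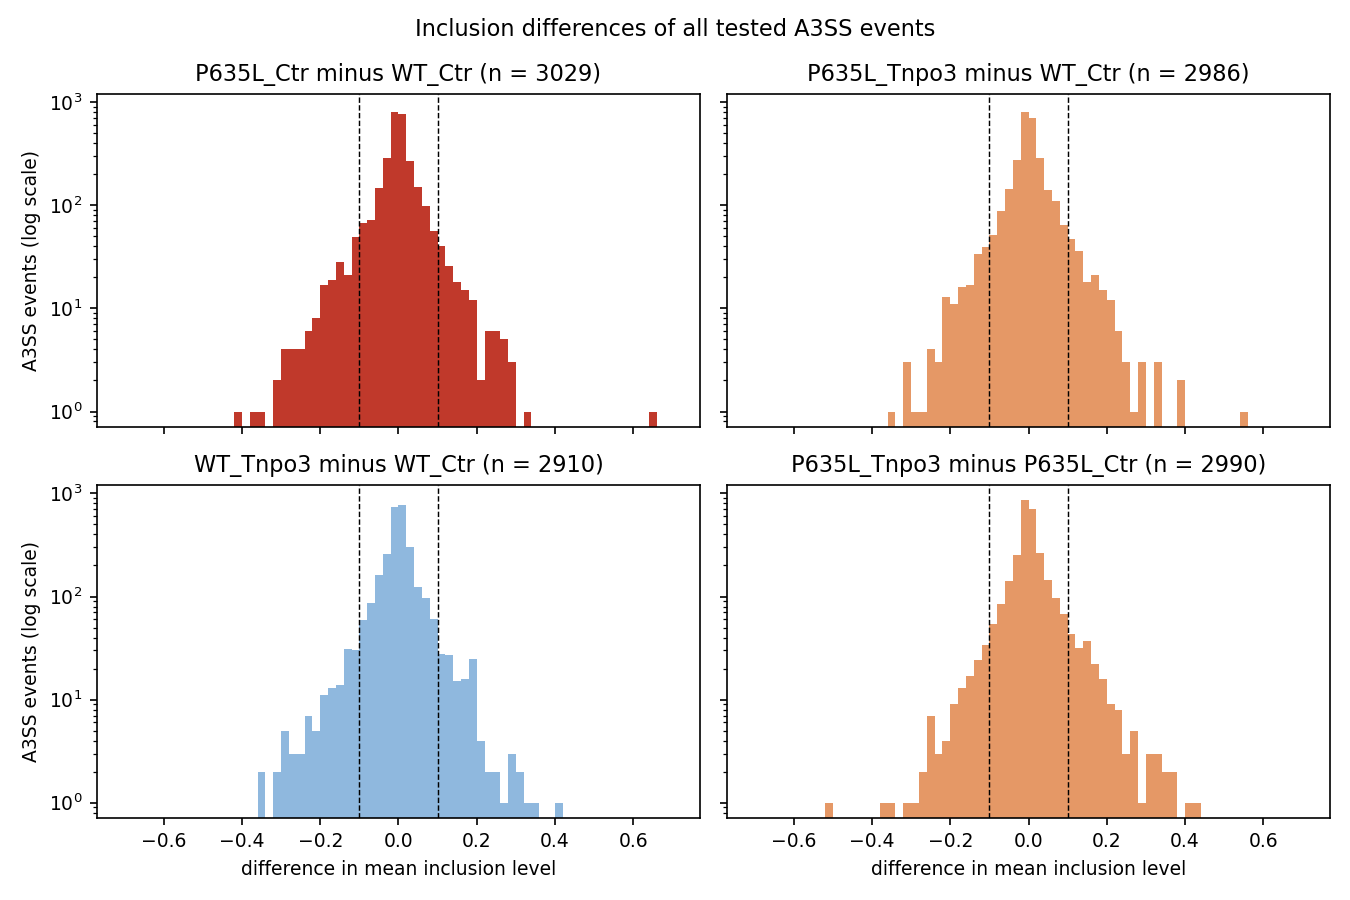
Histograms of the difference in mean inclusion level (x axis) of every A3SS event at the read minimum, with the number of events on a logarithmic y axis, for the 4 comparisons. The bulk of each lies near 0, and Tpm2, at 0.65 and 0.555, stands at the far right of both comparisons of mutant with WT_Ctr hearts.

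Events were called in 2 ways. The first used edgeR's quasi-likelihood test on the reads of both forms, which takes in the spread between mice, and required a Benjamini-Hochberg adjusted p under 0.05 over all 5 event types and a difference of at least 0.1. The second used the authors' deposited rMATS FDR under 0.05 with the same minimum difference. In P635L_Ctr against WT_Ctr edgeR called 1 of 3029 A3SS events, beside 0.153% of the 34601 events of all types, and 151 had an unadjusted p under 0.05 (4.99%, beside 7.56% of all types). The rMATS FDR called 84 (30 higher, 54 lower), or 2.77%, beside 2.51% of all types (1.05% higher, 1.47% lower). In P635L_Tnpo3 against WT_Ctr edgeR called 1 of 2986, beside 0.0349% of all types, and 181 had an unadjusted p under 0.05 (6.06%, beside 7.44%). The rMATS FDR called 79 (45 higher, 34 lower), or 2.65%, beside 2.11% (1.11% higher, 1.0% lower). In WT_Tnpo3 against WT_Ctr edgeR called 0 of 2910 A3SS events and 0 of 31710 of all types (0.0%), with 103 A3SS events at an unadjusted p under 0.05 (3.54%, beside 5.34% of all types). DESeq2 and limma also called 0 there, with 87 and 226 events at an unadjusted p under 0.05. The rMATS FDR called 40 (22 higher, 18 lower), or 1.37%, beside 0.94% (0.429% higher, 0.511% lower). The rMATS shares of A3SS events thus lay close to those of all types in the mutant comparisons, and retained introns stood at 3.25% and 8.02% in the same tables.

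The rMATS calls did not stand apart in the kind of segment. In P635L_Ctr, 15.5% of the 84 called events had a 3-base segment, against 14.5% of all 3029, and 54.8% were coding, against 58.2%. In P635L_Tnpo3 the 3-base shares were 12.7% of 79 called and 14.4% of 2986, and in WT_Tnpo3 17.5% of 40 and 14.7% of 2910. The called events were read less deeply: the median mean read number in the lower group was 32.2, 37.5 and 20.4 among calls, against 57.5, 58.5 and 58.2 among all events tested, in the same order. Without overlap between the libraries of both groups were 26, 29 and 9 of the rMATS calls, or 0.858%, 0.971% and 0.309% of the A3SS events tested, beside 0.945%, 0.726% and 0.218% of all types.

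Tpm2 was the single A3SS event that edgeR called, and it rose in both groups of mutant hearts. Its segment lies at chr4:43514862-43516003 on the minus strand (GRCm39), is 1142 bases long and is partly coding. The 4 WT_Ctr libraries had inclusion levels of 0.09, 0.117, 0.022 and 0.058, so wild-type hearts used mainly the downstream acceptor. The WT_Tnpo3 libraries stood at 0.059, 0.175, 0.02 and 0.047, overlapping that range. In P635L_Ctr the levels were 0.696, 0.695, 0.808 and 0.689, and every library lay above every wild-type library. In P635L_Tnpo3 they were 0.599, 0.593, 0.663 and 0.652, again with no overlap with wild type. The difference from WT_Ctr was 0.65 in P635L_Ctr (edgeR adjusted p = 5.57e-12) and 0.555 in P635L_Tnpo3 (edgeR adjusted p = 4.53e-21). For WT_Tnpo3 it was 0.0035 (edgeR adjusted p = 0.985), which is smaller than the SD of 0.041 among the WT_Ctr libraries.

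The reads of each Tpm2 form show which one differed. Long-form reads numbered 16 to 43 per library in WT_Ctr and 17 to 126 in WT_Tnpo3, then 1347 to 3132 in P635L_Ctr and 747 to 2304 in P635L_Tnpo3. Short-form reads ranged from 151 to 358 in WT_Ctr, 201 to 416 in WT_Tnpo3, 206 to 688 in P635L_Ctr and 256 to 615 in P635L_Tnpo3, so the short form overlapped between all groups while the long form did not overlap between genotypes. The gene's total level rose as well. Its mean was 43.2 ± 15.3 CPM (gene counts scaled to a common library total; SD, n = 4) in WT_Ctr, 51.0 ± 15.8 in WT_Tnpo3, 211 ± 43.3 in P635L_Ctr and 148 ± 67.7 in P635L_Tnpo3. The authors' deposited table gives log2 fold changes over WT_Ctr of 2.04 (adjusted p = 6.34e-26), 1.55 (adjusted p = 1.81e-06) and, in WT_Tnpo3, 0.15 (adjusted p = 1) by DESeq2. In ventricle as a whole, a change in the cells present and a change of RNA per cell cannot be told apart. The 4 smooth muscle markers, whose cells express Tpm2, summed to 97.7 to 213.6 CPM in WT_Ctr and 128.7 to 218.7 CPM in P635L_Ctr, with 0 of 4 past the authors' adjusted p of 0.05. The 5 fibroblast markers summed to 631.4 to 1082 CPM in WT_Ctr, 1301 to 1985 CPM in P635L_Ctr and 882.3 to 1268 CPM in P635L_Tnpo3, with 5 of 5 higher in P635L_Ctr and 0 of 5 in P635L_Tnpo3, and their part in the Tpm2 result was not tested.

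Between the mutant groups, Tpm2 was lower with the Tnpo3 virus by a margin that edgeR did not call. The 4 P635L_Tnpo3 libraries, at 0.593 to 0.663, all lay below the 4 P635L_Ctr libraries, at 0.689 to 0.808. The difference was -0.0953, with an exact two-sided permutation p of 0.0286, the smallest that 4 against 4 libraries allow, before any adjustment over events. The edgeR adjusted p was 0.869. The lowest P635L_Tnpo3 library, at 0.593, still lay above the highest wild-type library, at 0.175.

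**Figure D3:**
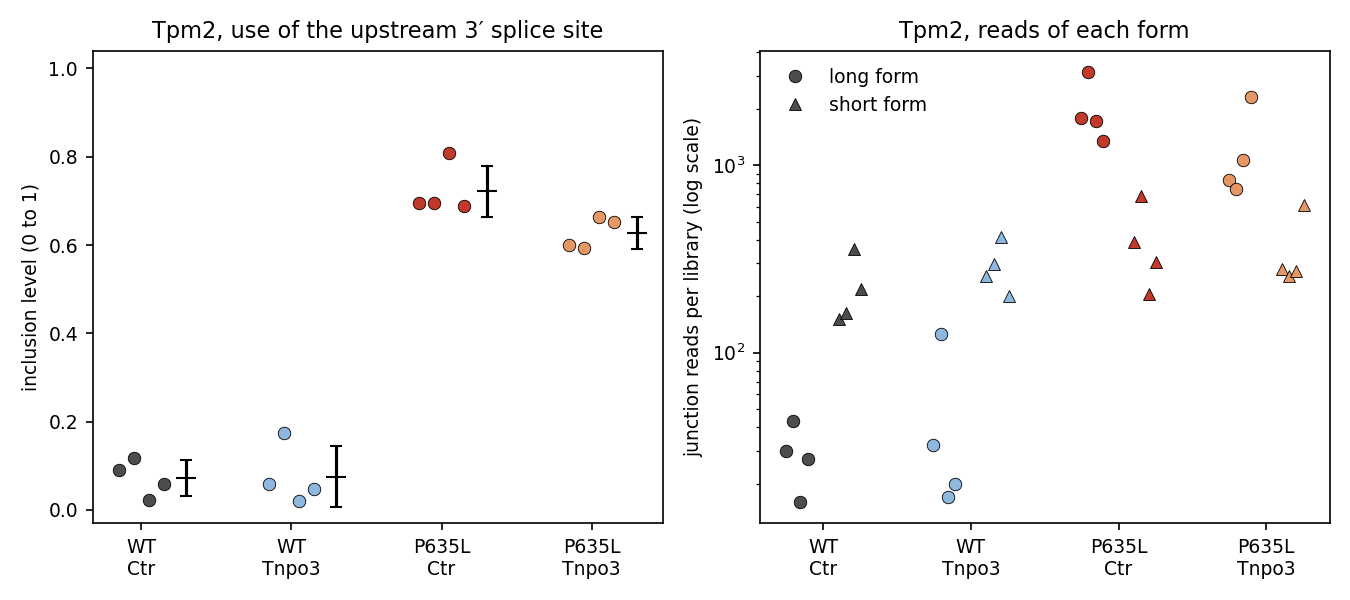
Tpm2 in the 16 libraries. Left, inclusion level (0 to 1) of each library, with a bar for the mean ± SD of 4. Right, junction reads of the long form (circles) and short form (triangles) on a logarithmic axis. All 8 mutant libraries lie at 0.593 or higher and all 8 wild-type libraries at 0.175 or lower, and the long form accounts for the gap in reads.

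Of the 26 rMATS calls that separated P635L_Ctr from WT_Ctr without overlap, Tpm2 and the 11 next in size of difference are named here, and these 11 had an edgeR adjusted p of 0.584 or higher. Tnrc6c, a GW182-family protein of microRNA silencing, used the upstream acceptor of its 24-base segment at 0, 0, 0 and 0.057 in WT_Ctr and at 0.17, 0.303, 0.291 and 0.451 in P635L_Ctr (rMATS FDR 4.94e-05). These levels rest on a mean of 14.5 and 12.8 reads per library. Celf2, an RNA-binding splicing regulator, had 0.223 to 0.848 in WT_Ctr and 0.048 to 0.153 in P635L_Ctr, a difference of -0.376 at 10.8 and 24.5 reads per library (rMATS FDR 0.00614). Both genes thus differed at segments of 24 and 18 bases, which keep the reading frame.

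Arhgef40, a guanine nucleotide exchange factor, stood at 0 to 0.184 in WT_Ctr and 0.226 to 0.546 in P635L_Ctr at its 12-base segment. Plekhg2, another such exchange factor, showed the opposite, with 0.63 to 1 in WT_Ctr and 0.2 to 0.538 in P635L_Ctr. The WT_Ctr level of 0 in Arhgef40 came from a library with 8 short-form reads, and that of 1 in Plekhg2 from a library with 4 long-form reads. Mast2, a microtubule-associated kinase, ranged from 0.663 to 0.917 and from 0.348 to 0.658. Its groups came nearest to touching of these events. Fance, a subunit of the Fanconi anaemia core complex, had 0.808 to 1 in WT_Ctr and 0.626 to 0.771 in P635L_Ctr, and its 29-base segment shifts the frame. Vps13d, a lipid transfer protein, was higher at a tandem acceptor, with 0.267 to 0.493 in WT_Ctr and 0.57 to 0.764 in P635L_Ctr (rMATS FDR 0.0482). Acy3, aminoacylase 3, had 0.529 to 0.732 and 0.763 to 1 at a 5-base segment of its 5′ UTR. C87436 stood at 0.868 to 1 and 0.632 to 0.805, and its WT_Ctr level of 1 came from a library with 4 long-form reads. The noncoding genes Hectd2os (0.618 to 0.716, then 0.447 to 0.494) and Ppp4r1l-ps, a pseudogene (0.727 to 0.875, then 0.235 to 0.702), were lower in P635L_Ctr. Hectd2os is annotated as antisense to a coding gene, and the strand setting of the junction counting is not given in the sources used here. Its gene level rose from 8.88 ± 2.39 CPM in WT_Ctr to 25.7 ± 1.55 CPM in P635L_Ctr (n = 4 each), and the authors' deposited table puts the change at 1.27 on the log2 scale (DESeq2 adjusted p = 5.54e-09).

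**Figure D4:**
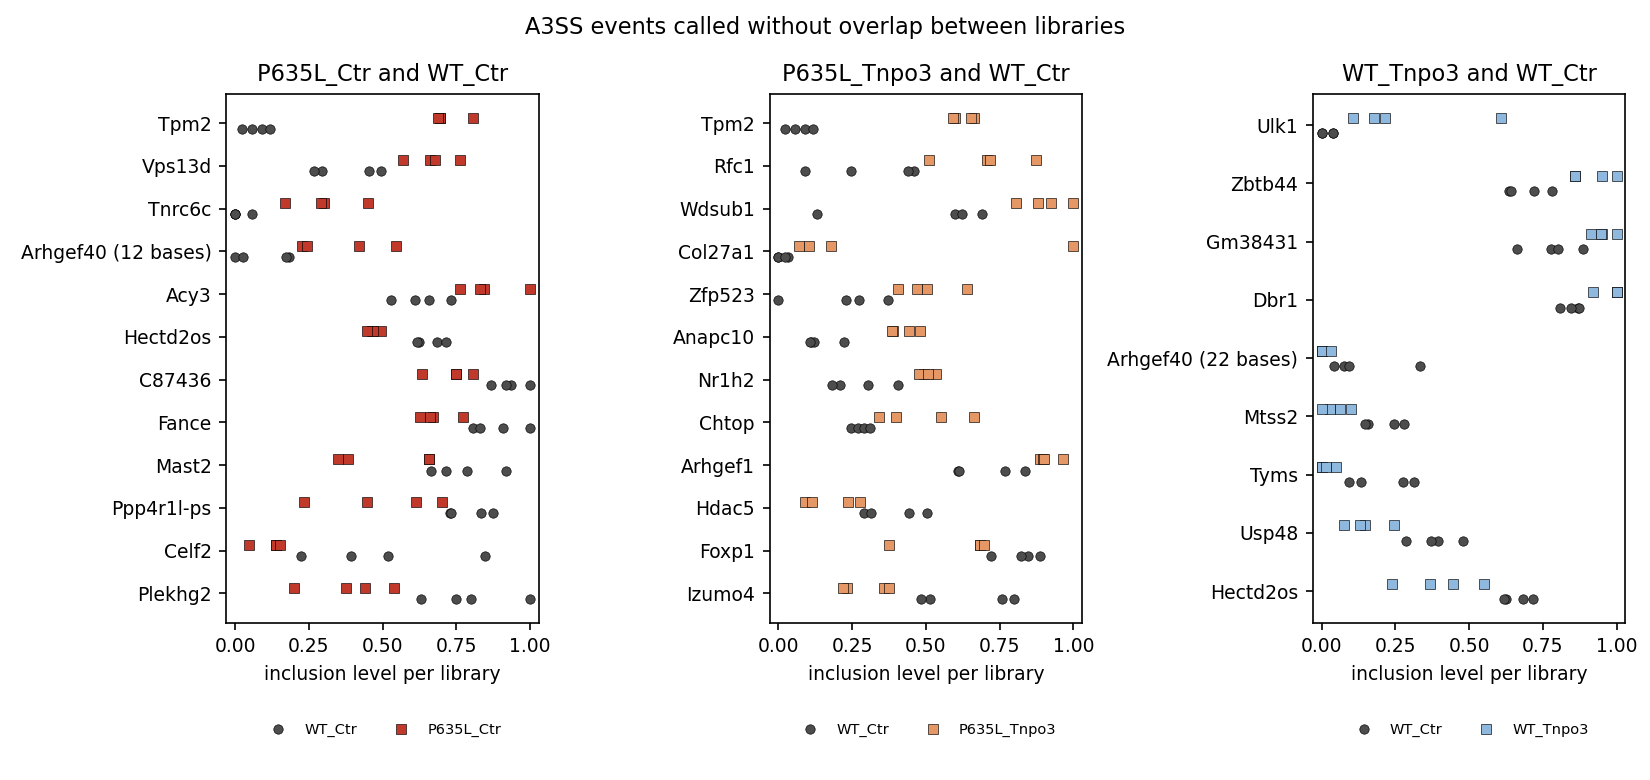
Inclusion level of each library (x axis, 0 to 1) for the named A3SS events among those called without overlap between libraries, in 3 panels that set P635L_Ctr, P635L_Tnpo3 and WT_Tnpo3 (squares) against WT_Ctr (circles). In Tpm2 the groups are farthest apart, and in Mast2 of the P635L_Ctr panel they all but touch, at 0.663 and 0.658.

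Known RBM20 targets were taken as a list of 40 genes. Of these, 20 held 27 A3SS events at the read minimum in P635L_Ctr against WT_Ctr. By edgeR 0 of the 27 were called, with 2 at an unadjusted p under 0.05. The rMATS FDR called 3 of 27, all lower in P635L_Ctr, beside 84 of 3029 A3SS events and 2.51% of all event types. A difference of at least 0.1 was seen in 5 of 27, beside 301 of 3029 A3SS events. The median absolute difference was 0.0278, beside 0.0185 for all A3SS events. The rMATS FDR called 0 of 25 events of these genes in P635L_Tnpo3 and 0 of 24 in WT_Tnpo3, and edgeR called 0 in each. Tpm2 is not on this list.

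Enah, an actin-assembly protein of the Ena/VASP family, used the upstream acceptor of a 732-base coding segment at 0.576, 0.396, 0.6 and 0.527 in WT_Ctr and 0.372, 0.373, 0.384 and 0.307 in P635L_Ctr (difference -0.166, rMATS FDR 0.0416). P635L_Tnpo3 lay between, at 0.365 to 0.551, and overlapped both. The Enah gene itself rose from 87.2 ± 5.59 to 280 ± 16.2 CPM in P635L_Ctr, 1.41 on the log2 scale in the authors' deposited table (DESeq2 adjusted p = 5.57e-35). Ablim1, an actin-binding LIM protein, had 0.636 to 0.949 in WT_Ctr and 0.426 to 0.662 in P635L_Ctr at a 6-base segment (difference -0.24, rMATS FDR 0.0107), and the groups overlapped. Tandem acceptors of Camk2d, Speg, Pdlim5 and Ank3 differed by 0.034 or less.

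Ttn, the giant sarcomere protein titin and the best-known RBM20 target, fell outside the read minimum in WT_Ctr and is described here after its values were seen. Its 99-base coding segment at chr2:76679416-76679514 had 0, 12, 2 and 19 long-form reads and no short-form read in the 4 WT_Ctr libraries. In P635L_Ctr the picture was the reverse, with 0, 0, 10 and 0 long-form reads and 34, 56, 137 and 38 short-form reads. P635L_Tnpo3 had 11, 1, 13 and 0 long-form and 15, 4, 16 and 3 short-form reads, levels of 0.278, 0.116, 0.3 and 0. The authors' rMATS FDR was 1 in both mutant tables, and the table of WT_Tnpo3 did not list the event. The mean of 8.25 reads per WT_Ctr library left it out of the edgeR comparison, and the call it received with no read minimum rests on the reads of 3 WT_Ctr libraries.

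**Figure D5:**
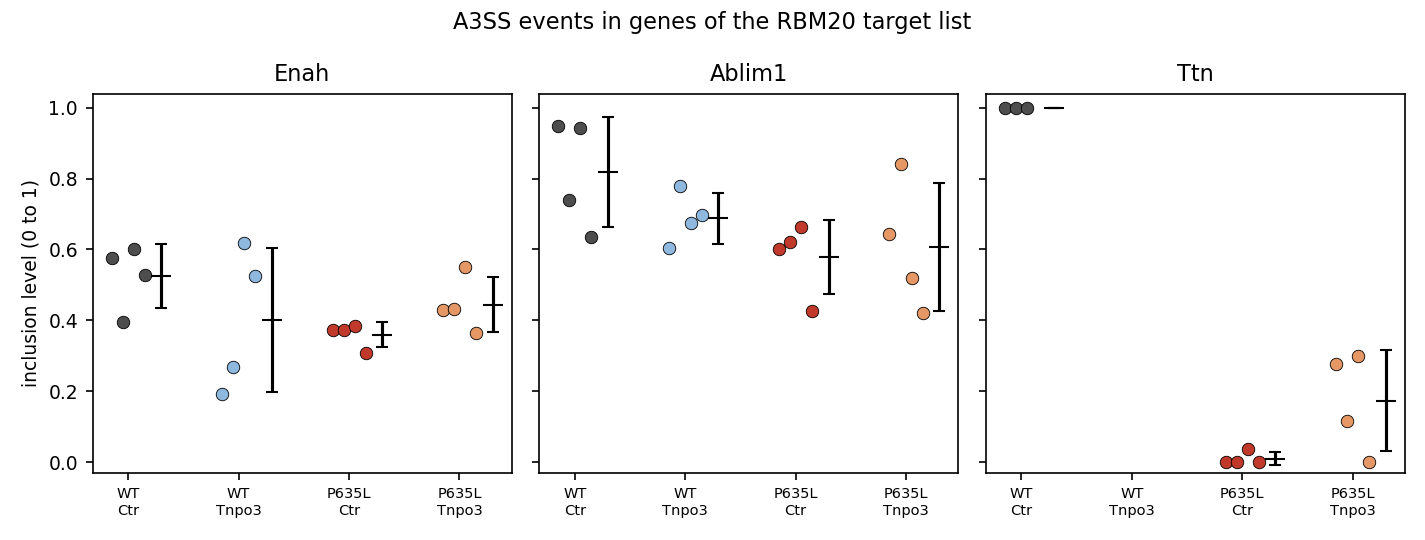
Inclusion level (y axis, 0 to 1) of each library for the A3SS events of Enah, Ablim1 and Ttn in the 4 groups, with a bar for the mean ± SD. In Enah the 4 P635L_Ctr libraries lie at 0.384 or lower and the WT_Ctr libraries at 0.396 or higher, and Ttn has no WT_Tnpo3 value and a level in 3 WT_Ctr libraries.

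Of the 29 rMATS calls that separated P635L_Tnpo3 from WT_Ctr without overlap, Tpm2 and the 11 next in size of difference are named here, and these 11 had an edgeR adjusted p of 0.413 or higher. Nr1h2, the nuclear receptor LXR beta, had 0.182 to 0.407 in WT_Ctr and 0.478 to 0.536 in P635L_Tnpo3 (rMATS FDR 6.13e-05). Hdac5, a class II histone deacetylase of muscle, was lower at its CAG tandem, with 0.289 to 0.505 and 0.089 to 0.276. Foxp1, a forkhead transcription factor, used its CAG tandem at 0.722 to 0.886 and 0.376 to 0.698. Zfp523, a zinc finger protein, had 0 to 0.372 and 0.406 to 0.64 at a 14-base segment that shifts the frame. Chtop, a chromatin protein that also acts in mRNA export, had 0.245 to 0.311 and 0.341 to 0.664 at a segment of 997 bases in its 5′ UTR.

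Anapc10, a subunit of the anaphase-promoting complex, had the lowest FDR of these 11 (5.33e-07), with 0.108 to 0.223 in WT_Ctr and 0.386 to 0.481 in P635L_Tnpo3. Its WT_Tnpo3 libraries, at 0.213 to 0.47, spanned the gap. Arhgef1, a guanine nucleotide exchange factor, had 0.608 to 0.837 and 0.886 to 0.966. Rfc1, the large subunit of the replication clamp loader, used its CAG tandem at 0.089 to 0.46 and 0.512 to 0.872. Wdsub1 had 0.13 to 0.692 and 0.805 to 1, and Izumo4 0.484 to 0.798 and 0.22 to 0.376. Col27a1, a fibrillar collagen chain, had 0 to 0.031 and 0.071 to 1, where the value of 1 comes from a library with 3 reads.

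Raising Tnpo3 in wild-type hearts produced no A3SS call by edgeR at the minimum difference. The labels were first checked on Tnpo3 itself, which measured 39.8 ± 3.21 CPM in WT_Ctr, 301 ± 93.1 in WT_Tnpo3, 48.1 ± 0.98 in P635L_Ctr and 507 ± 246 in P635L_Tnpo3 (SD, n = 4). The authors' deposited table gives log2 fold changes of 2.85 and 3.40 over WT_Ctr for the 2 groups with that virus (DESeq2 adjusted p = 4.73e-29 and 4.58e-33). Rbm20, whose P635L change is in the coding sequence, was 220 ± 80.2 CPM in WT_Ctr, 214 ± 47.4 in WT_Tnpo3, 255 ± 28.1 in P635L_Ctr and 244 ± 23.9 in P635L_Tnpo3, with no DESeq2 call.

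Tnpo3 also holds the A3SS event with the lowest p in this comparison, below the minimum difference and named after its values were seen. The 18-base coding segment at chr6:29554962-29554979 was included at 0.019, 0.032, 0.094 and 0.101 in WT_Ctr, 0, 0, 0.016 and 0.001 in WT_Tnpo3, 0.036, 0.076, 0.091 and 0 in P635L_Ctr and 0.002, 0.001, 0.004 and 0 in P635L_Tnpo3. The edgeR adjusted p was 0.000604 for WT_Tnpo3 and 9.2e-07 for P635L_Tnpo3 against WT_Ctr, and 0.0866 between the mutant groups. Short-form reads went from 44 to 61 per library in WT_Ctr to 525 to 961 in WT_Tnpo3, while long-form reads were 1 to 8 and 0 to 10. The virus delivers Tnpo3 cDNA, which has no introns to splice, and its reads and those of the endogenous gene cannot be told apart in these counts.

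Under the rMATS call, 9 other events separated WT_Tnpo3 from WT_Ctr, all with an edgeR adjusted p of 0.734. Ulk1, the kinase that starts autophagy, had 0, 0.038, 0.038 and 0 in WT_Ctr and 0.107, 0.177, 0.607 and 0.215 in WT_Tnpo3 at its 18-base segment (rMATS FDR 3.93e-05). Tyms, thymidylate synthase, had 0.092 to 0.314 and 0 to 0.05 at a 10-base segment of its 3′ UTR (rMATS FDR 5.39e-06). Dbr1, the enzyme that debranches intron lariats, had 0.807 to 0.873 and 0.919 to 1. Zbtb44, a zinc finger protein, had 0.636 to 0.782 and 0.858 to 1. Usp48, a deubiquitinating enzyme, used its CAG tandem at 0.286 to 0.478 and 0.077 to 0.245, and Mtss2, a membrane-bending protein, at 0.148 to 0.28 and 0 to 0.1. Arhgef40 had 0.043 to 0.333 and 0 to 0.031 at a 22-base segment, another than the one named above, and Hectd2os 0.618 to 0.716 and 0.237 to 0.551. The AAG tandem of Gm38431 had 0.661 to 0.886 and 0.915 to 1, but the gene counts assign it only 0.111 ± 0.078 CPM in WT_Ctr, against a mean of 19.8 junction reads, so its reads may belong to an overlapping gene and its value is uncertain.

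The effect of the Tnpo3 virus in mutant hearts was tested on 2990 events by joining both mutant groups from their tables. By edgeR 0 A3SS events were called, beside 0.0239% of 29305 events of all types, and 151 had an unadjusted p under 0.05 (5.05%, beside 5.63% of all types). DESeq2 called 4 of the 2990, all higher in P635L_Tnpo3 and named here after their values were seen, and limma called 0. The DESeq2 share over events of all types is not given here, so the 4 cannot be set against it. Zfp523 went from 0.111 to 0.212 in P635L_Ctr to 0.406 to 0.64 in P635L_Tnpo3 (DESeq2 adjusted p = 0.0103). Arhgef1 went from 0.572 to 0.775 to 0.886 to 0.966 (DESeq2 adjusted p = 0.048). Coq2, an enzyme of coenzyme Q synthesis, went from 0.111 to 0.18 to 0.248 to 0.386 (DESeq2 adjusted p = 0.0311). The Ttn segment described above was the fourth, at 0 to 0.037 and 0 to 0.3 (DESeq2 adjusted p = 0.00915), and its groups overlapped. Mast2 had the largest difference among the named events, 0.379, with 0.348 to 0.658 in P635L_Ctr and 0.818 to 0.944 in P635L_Tnpo3 (edgeR adjusted p = 0.641).

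Whether the virus acted differently in the genotypes was tested as an interaction on 2667 events in the 16 libraries. By edgeR 0 A3SS events were called, beside 0.00787% of 25400 events of all types, the lowest adjusted p was 0.872, and 110 events had an unadjusted p under 0.05 (4.12%, beside 5.3% of all types). DESeq2 and limma also called 0, with 115 and 259 at an unadjusted p under 0.05. For Tpm2 the virus effect differed by -0.0988 between genotypes (edgeR adjusted p = 1).

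The rMATS call was carried by 4 events in all 3 tables, which are named after their values were seen. Dcp1b, a cofactor of mRNA decapping, had 0.703, 0.82, 0.612 and 1 in WT_Ctr, against 0.853 to 1 in WT_Tnpo3, 0.929 to 1 in P635L_Ctr and 0.956 to 1 in P635L_Tnpo3. Secisbp2, which binds the selenocysteine element of selenoprotein mRNAs, had 0.818 to 1 in WT_Ctr and 0.294 to 0.846, 0.654 to 0.81 and 0.584 to 0.818 in the same other groups. The noncoding Halr1 had 0.818 to 1, then 0.529 to 0.929, 0.583 to 0.905 and 0.651 to 1. Col27a1 had 0 to 0.031, then 0 to 0.478, 0 to 0.416 and 0.071 to 1. In Dcp1b and Halr1 every other group overlapped WT_Ctr. In Secisbp2 every other group but P635L_Ctr overlapped or touched it, and in Col27a1 every other group but P635L_Tnpo3 overlapped it. Each of the 4 kept its direction in the 3 tables, which share the same 4 WT_Ctr libraries. The P635L_Ctr and P635L_Tnpo3 tables had 18 calls in common, 21.4% of the first and 22.8% of the second. P635L_Ctr and WT_Tnpo3 shared 9 calls (10.7% and 22.5%), and P635L_Tnpo3 and WT_Tnpo3 shared 5 (6.33% and 12.5%). The matching overlap over events of all types is not given here. These counts, like the 4 events in all 3 tables, are therefore not a result particular to A3SS events.

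Genes that recognise 3′ splice sites changed little in total level. Of 30 such genes, 1 rose and 0 fell in P635L_Ctr by the authors' DESeq2 adjusted p under 0.05, where 3378 of 21628 genes passed, and 0 passed in P635L_Tnpo3 or WT_Tnpo3, where 1198 of 19166 and 3 of 24350 genes did. The one that rose was Zrsr1, a relative of the small U2AF subunit, from 14.3 ± 3.03 to 30.1 ± 2.96 CPM (0.81 on the log2 scale in the authors' deposited table, adjusted p = 1.79e-07). U2af1 and U2af2, which encode the U2AF dimer, had log2 fold changes of 0.04 and -0.15 in P635L_Ctr in the authors' deposited table, with adjusted p of 0.907 and 0.42. Of the SR proteins, splicing activators that TNPO3 carries, 4 of 12 rose in P635L_Ctr, namely Srsf1, Srsf2, Srsf5 and Srsf7. Their log2 fold changes in the authors' deposited table were 0.35 to 0.57, with DESeq2 adjusted p of 0.0185 to 0.0392. In P635L_Tnpo3 Srsf11 was the 1 of 13 that rose (log2 0.50 in the authors' deposited table, adjusted p = 0.0231), beside the 1198 of 19166 genes, and in WT_Tnpo3 0 of 13 did.

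Gene counts totalled 28493249 to 85922669 per library, and the highest of them was a P635L_Ctr library. The ventricular identity of the tissue was plain in the markers: those of ventricular cardiomyocytes summed to 55480 to 85630 CPM in every library, while the atrial markers Sln and Myl7 stayed at or below 0.755 and 1.33 CPM. Another atrial marker, Myl4, had 2.36 to 6.19 CPM in WT_Ctr and 5.45 to 9.51 CPM in P635L_Ctr, without passing the authors' adjusted p. Of 7 ventricular markers, 4 fell in P635L_Ctr by the authors' adjusted p. Nppa, a stress gene of ventricle as well as an atrial marker, rose from 125.5 to 296 CPM in WT_Ctr to 5306 to 10320 in P635L_Ctr and 977 to 4902 in P635L_Tnpo3. Just inside the read minimum of P635L_Ctr against WT_Ctr, an event of 2310020H05Rik had 10 WT_Ctr reads and a difference of -0.119 and an Acvrl1 event 10 reads and -0.008. Just outside, an Abraxas2 event and another Acvrl1 event, with 9.75 reads each, had -0.024 and -0.054.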

How the data were processed

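RNA-seq was made from poly(A)-selected RNA with a directional kit, per the labels' protocols. The submitters' processing notes name GRCm39, STAR 2.7.9a, featureCounts 2.0.6 and DESeq2. The rMATS version is not given in the sources used here. The authors deposited whole-number gene counts, DESeq2 tables with log2 fold changes and adjusted p-values, and 3 rMATS tables with junction read counts of both forms, inclusion levels (a fraction), differences, p-values and FDR. The log2 fold changes deposited by the authors are WT_Ctr over the other group and were reversed in sign. The deposited FDR was checked to be adjusted within each event type.

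Each rMATS cell lists 4 libraries with no stated order, so they are called by listed position and were not linked to the gene counts' replicates. Labels describe the 4 libraries of a group as separate mice. Events were joined across tables by coordinates. In R 4.3.3, edgeR 4.0.16 fitted long- and short-form reads with a term per library and tested form by group (quasi-likelihood, robust), on events of all 5 types with at least 10 reads per library on average in both groups. DESeq2 1.42.0, limma 3.58.1, other read minimums and differences, and leaving out each library were alternatives. The edgeR fit was tested on simulated data: with 200 of 34601 events changed in P635L_Ctr against WT_Ctr, edgeR found 60% of those of size 0.4 but 2% of those of size 0.2, with 8.82% false calls. CPM values are gene counts scaled to a common library total.

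Events named were those edgeR called, then rMATS calls with no overlap between libraries by size of difference up to 12 a comparison, and calls in RBM20 target genes; 1 such call counted in the text is not reported here. Members, gene lists and markers were chosen with earlier results of these data known.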

Additional observations from a re-analysis of the deposited data

Results flagged for a closer look

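In 159 groups of 4 libraries of the named events, 18 had a library far from the other 3 by Dixon's criterion. Chance alone meets it in about 1 of 20 groups of continuous, normally distributed values. Inclusion levels often tie at 0 or 1, and a group with 3 tied libraries meets it however small the gap. The count of 18 can therefore not be set against that rate. In WT_Ctr, Anapc10 had a library at 0.223 with the others at 0.108 to 0.12, Wdsub1 one at 0.13 with the others at 0.599 to 0.692, Halr1 one at 0.818 with the others at 1, and Tnrc6c one at 0.057 with the others at 0. In WT_Tnpo3, Arhgef40 had a library at 0.253 in its 12-base event and one at 0.031 in its 22-base event with the others at 0, Dbr1 one at 0.919 with the others at 1, Dcp1b one at 0.853 with the others at 0.978 to 1, and Tnpo3 one at 0.016 with the others at 0 to 0.001. In P635L_Ctr, Tpm2 had a library at 0.808 with the others at 0.689 to 0.696, Celf2 one at 0.048 with the others at 0.139 to 0.153, Enah one at 0.307 with the others at 0.372 to 0.384, Dcp1b one at 1 with the others at 0.929 to 0.938, Ttn one at 0.037 with the others at 0, and Cox4i1, which encodes a subunit of respiratory complex IV, one at 0.999 with the others at 1. In P635L_Tnpo3, Foxp1 had a library at 0.376 with the others at 0.682 to 0.698, Col27a1 one at 1 with the others at 0.071 to 0.177, and Dcp1b one at 0.956 with the others at 1. The Col27a1 library had 3 reads, and the Wdsub1 library 1 long-form and 5 short-form reads. The Cox4i1 flag rests on levels rounded to 3 decimals.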

How the results depend on the processing

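Tpm2 was called in both comparisons of mutant with WT_Ctr hearts under every alternative run there: read minimums of 20 or none, limma, DESeq2, adjustment over A3SS events alone, differences of 0.05 or 0.2, the authors' rMATS FDR, leaving out each library and, added after seeing the data, at least 5 reads of both forms or A3SS events fitted alone. The edgeR count in P635L_Ctr was 2 with no read minimum, and 1 to 2 on leaving out each library; the second event was Ttn, called without WT_Ctr listed position 1 or 3. At a difference of 0.05 the count was 2 in P635L_Tnpo3 and 1 in WT_Tnpo3, where Tnpo3 was added. Leaving out each library gave 1 to 1 in P635L_Tnpo3 and 0 to 0 in WT_Tnpo3, between the mutant groups and for the interaction. DESeq2 gave 4 between the mutant groups. The rMATS FDR gave 84, 79 and 40 calls in P635L_Ctr, P635L_Tnpo3 and WT_Tnpo3. Of these counts, those with no read minimum were 151, 138 and 76, those at a difference of 0.05 were 141, 148 and 74, those at 0.2 were 17, 25 and 10, and a minimum of 20 reads gave 56, 55 and 19. On leaving out each library they were 79 to 86, 77 to 89 and 38 to 47. In these runs the deposited FDR, which rests on all libraries, was kept, and only differences and mean reads were recomputed. The ranges therefore do not show how the FDR itself depends on a library. The cause of these changes was not tested. The Tpm2 difference between WT_Tnpo3 and WT_Ctr, 0.0035, turned to -0.0131 and -0.00108 without WT_Ctr listed positions 3 and 4 and to -0.0297 without WT_Tnpo3 listed position 2, and reached 0.0219 without its position 3. Over 56 pairs of named event and comparison, 550 alternative values kept direction and side of the threshold, 49 passed it where edgeR had not, and 3 turned. No paired analysis was possible because the rMATS tables carry no replicate numbers. A simulation took the read totals and mean levels of P635L_Ctr against WT_Ctr, but its spread between libraries was assumed, not estimated from them. Changes were placed only in events with a level between 0.1 and 0.9. There edgeR recovered 2% and limma 11.3% of changes of 0.2.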

Other observations

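Cox4i1, named after its values were seen, had the second-lowest edgeR p of the A3SS events in P635L_Ctr against WT_Ctr at a difference too small to show in its inclusion level. Its 4-base segment shifts the frame, and its short form had 2, 15, 7 and 4 reads in WT_Ctr, 8, 15, 7 and 3 in WT_Tnpo3, 32, 93, 35 and 28 in P635L_Ctr and 15, 25, 34 and 19 in P635L_Tnpo3. The long form had 50657 to 171116 reads per library in the 16 libraries. The edgeR adjusted p was 0.0289 for P635L_Ctr and 0.659 for P635L_Tnpo3 against WT_Ctr, and the difference of -0.00025 in P635L_Ctr is far under the minimum.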
